A study of Rattus norvegicus with 12 samples.

Results

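The arrays carried 9 genes of the aryl hydrocarbon receptor (AHR) pathway that were chosen by name: Ahr, Arnt, Ahrr, Cyp1a1, Cyp1a2, Cyp1b1, Tiparp, Nqo1 and Aldh3a1. They were found through the RefSeq accession printed for each spot, and all 9 were present, each with 1 probe, among 14737 genes that could be named on the array. Of these, 7 were bright enough to be tested, against 21239 of the 30367 transcript probes over the whole array. The RNA came from lung tissue of male Sprague-Dawley rats aged 8 to 12 weeks, with 3 rats in each of 4 groups and 1 single-colour array for each rat. Control rats received air or saline on the same schedule. CS+LPS rats, a model of chronic obstructive pulmonary disease, breathed cigarette smoke (CS) until day 30 and received lipopolysaccharide (LPS), a bacterial cell wall component, into the trachea on days 5 and 19. CS+LPS+NaHS rats were exposed in the same way and were given sodium hydrosulfide, a donor of hydrogen sulfide, while CS+LPS+PPG rats were given propargylglycine, an inhibitor of the hydrogen sulfide producing enzyme CTH. Lungs were taken 24 h after the last smoke session. No group received smoke alone, LPS alone, NaHS alone or PPG alone, so the part of smoke and the part of LPS in any difference from control cannot be told apart.

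AHR is a ligand-activated transcription factor of the bHLH-PAS family that waits in the cytoplasm with chaperones. Polycyclic aromatic hydrocarbons, which cigarette smoke carries, bind it, and it then enters the nucleus, pairs with ARNT and binds DNA at xenobiotic response elements. Its best known targets encode cytochrome P450 enzymes of the CYP1 family and the feedback inhibitors AHRR and TIPARP, and the lung is among the tissues in which smoke is known to induce them.

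The promoters of 3 of the members are printed here, since they show how the element that AHR binds is placed in the gene that differed from control in each exposed group (Ahrr) and in a pair of targets that did not pass the test against control (Cyp1b1 and Tiparp). Each stretch has 300 bases, from 250 before to 50 after the RefSeq transcription start on build GRCr8, written 5′ to 3′ on the strand of the gene: chr1:30821969-30822268 (plus strand) for Ahrr, chr6:21094315-21094614 (plus strand) for Cyp1b1 and chr2:152063519-152063818 (plus strand) for Tiparp. Capitals mark the element core, GCGTG, or CACGC where it lies on the opposite strand.
Ahrr: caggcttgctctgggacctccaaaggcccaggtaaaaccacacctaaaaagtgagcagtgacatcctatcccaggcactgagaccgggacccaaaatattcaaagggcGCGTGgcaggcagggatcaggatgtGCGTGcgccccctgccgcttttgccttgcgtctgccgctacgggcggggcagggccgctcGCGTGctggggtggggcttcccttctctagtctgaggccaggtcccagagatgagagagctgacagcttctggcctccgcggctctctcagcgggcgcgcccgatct
Cyp1b1: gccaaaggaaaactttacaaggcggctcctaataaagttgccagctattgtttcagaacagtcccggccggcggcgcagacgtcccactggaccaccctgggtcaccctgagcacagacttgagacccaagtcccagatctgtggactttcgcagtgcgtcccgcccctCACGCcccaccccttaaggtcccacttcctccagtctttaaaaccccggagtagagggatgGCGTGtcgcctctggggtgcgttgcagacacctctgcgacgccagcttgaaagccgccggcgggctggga
Tiparp: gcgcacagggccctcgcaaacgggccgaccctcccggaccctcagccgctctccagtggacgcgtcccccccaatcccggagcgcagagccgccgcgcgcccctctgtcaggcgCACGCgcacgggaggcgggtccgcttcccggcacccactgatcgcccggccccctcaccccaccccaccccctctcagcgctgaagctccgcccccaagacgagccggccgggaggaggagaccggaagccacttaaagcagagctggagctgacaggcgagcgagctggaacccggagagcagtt

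A RefSeq promoter was found for 7 of the 9 members. The Ahrr promoter held 3 cores, which began 142, 117 and 57 bases before the start, and the last of them was part of the longer form TNGCGTG. Cyp1b1 held 2 cores, which began 81 and 20 bases before the start, with the longer form at the second. Arnt, Tiparp and Nqo1 held 1 core each, and Ahr and Cyp1a2 held none in this window. With both strands searched, 29.7% of 33469 rat promoters of this length held at least 1 core, 10.2% held at least 2 and 3.59% held at least 3, while 4.89% held the longer form, which always contains the core. The same 5 letters also occur in the hypoxia response element. A match is a description of letters and not of a bound site. Whether the number of cores goes with the difference of a gene from control was not tested.

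Signals are given as log2 of the background-subtracted signal of the scanner software after each array was scaled to its own 75th percentile, with 1 unit equal to a 2-fold difference. That percentile ranged from 1229 to 3261 over the 12 arrays, 66.0 to 75.5% of probes were well above background, and no spot was saturated. The arrays lay on 2 slides: slide 1 held Control 1, Control 2 and all NaHS and PPG arrays, while slide 2 held Control 3 and all CS+LPS arrays. Control 3 had the lowest percentile. Comparisons of NaHS or PPG rats with CS+LPS rats therefore ran across slides, and slide and group cannot be told apart there except through the controls. Markers of lung epithelium were present, with all 5 alveolar type 2 genes named on the array tested and 5 of 6 type 1 genes.

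**Figure D1:**
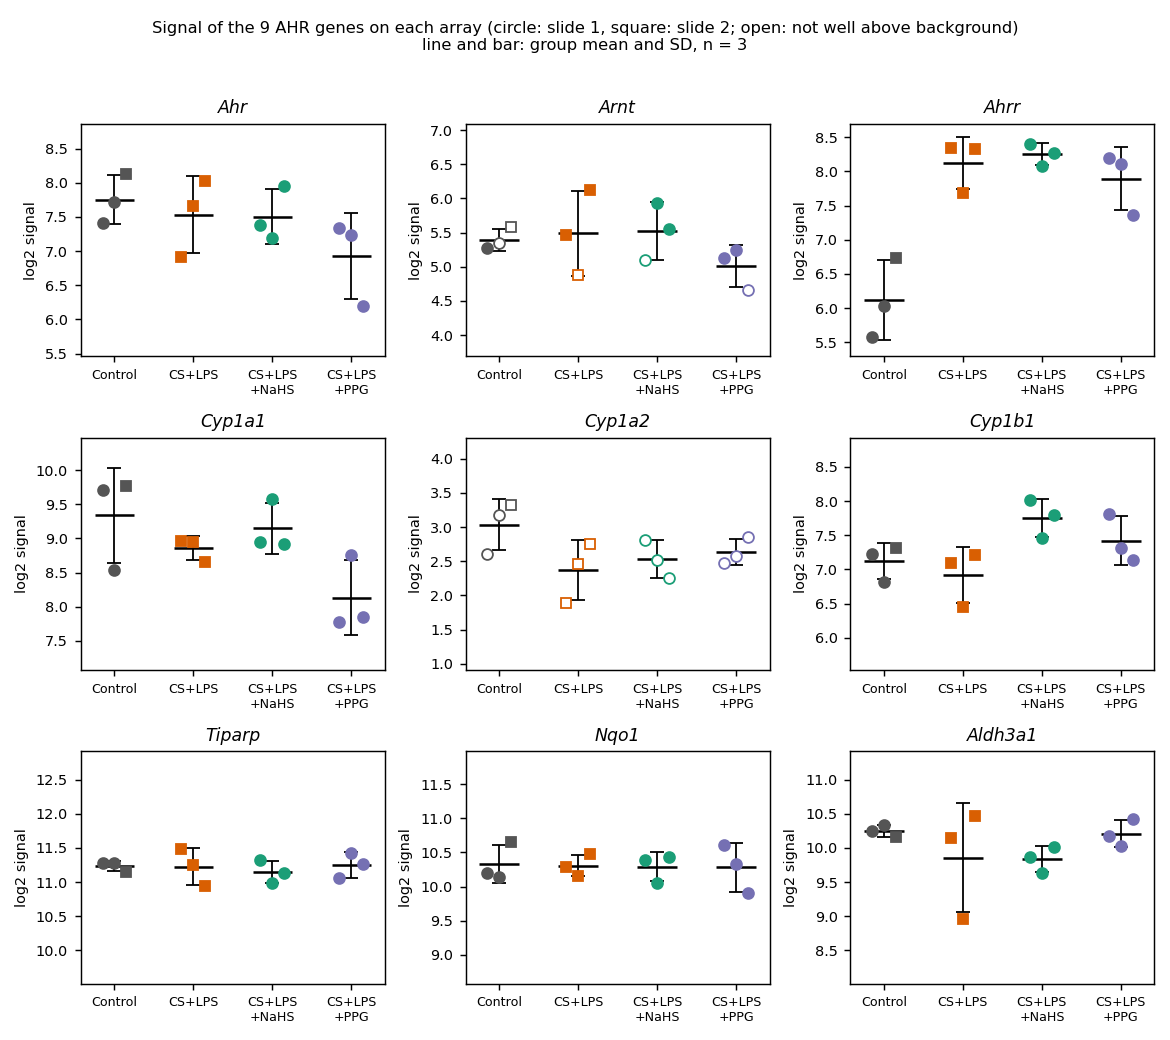
Signal of each of the 9 genes on every array. The vertical axis is log2 scaled signal and spans the same number of log2 units in each panel, points are single rats, lines and bars are the group mean and SD (n = 3), circles lie on slide 1 and squares on slide 2, and open symbols were not well above background. For Ahrr the 9 exposed rats lay between 7.37 and 8.41, above the 3 control rats at 5.58 to 6.73, whereas Tiparp and Nqo1 overlapped between all groups.

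Ahr, which encodes the receptor itself, was well above background on all 12 arrays. Its log2 signal was 7.41, 7.71 and 8.13 in control rats, 6.91, 7.66 and 8.02 in CS+LPS rats, 7.38, 7.19 and 7.95 in CS+LPS+NaHS rats, and 7.33, 7.23 and 6.20 in CS+LPS+PPG rats. All 3 PPG rats were below the lowest control rat, and the other groups overlapped with control. PPG rats differed from control by -0.83 (95% confidence interval -1.64 to -0.02, unadjusted p = 0.0449 and adjusted p = 0.159 by limma), which did not pass the test. Over all 9 exposed rats the difference was -0.43 with an interval of -1.09 to 0.23. Without CS+LPS+PPG replicate 3, the lowest array, the PPG difference was -0.47.

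Arnt, the partner that AHR needs to bind DNA, gave a dim signal from a single spot. It was well above background in 1 of 3 control rats and in 2 of 3 rats of each exposed group, so it did not enter the test. Its log2 signal ran from 5.27 to 5.58 in control rats, from 4.87 to 6.12 in CS+LPS rats, from 5.09 to 5.94 in CS+LPS+NaHS rats and from 4.66 to 5.25 in CS+LPS+PPG rats. Only some of these arrays measured it above background, and no order of the groups is read from them.

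Ahrr encodes the AHR repressor, which competes with AHR for ARNT and is itself induced by AHR. It rose about 4-fold in the exposed lung and was the member that passed the test. Its log2 signal was 5.58, 6.03 and 6.73 in control rats. It was 8.34, 7.69 and 8.34 in CS+LPS rats, 8.41, 8.08 and 8.27 in CS+LPS+NaHS rats, and 8.20, 8.11 and 7.37 in CS+LPS+PPG rats. Every exposed rat was above every control rat, and the 3 exposed groups overlapped with each other. The group means were 6.12 ± 0.58 for control, 8.12 ± 0.38 for CS+LPS, 8.25 ± 0.16 for CS+LPS+NaHS and 7.89 ± 0.46 for CS+LPS+PPG (SD, n = 3).

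Against control, Ahrr was higher by 2.00 in CS+LPS rats (SE 0.31, interval 1.31 to 2.69, 4.01-fold, adjusted p = 0.0176 by limma). In CS+LPS+NaHS rats it was higher by 2.14 (4.39-fold, adjusted p = 0.0378 by limma), and in CS+LPS+PPG rats by 1.78 (3.43-fold, adjusted p = 0.0217 by limma). These comparisons share the same 3 control rats. Over all 9 exposed rats the difference was 1.97 (SE 0.26, 3.92-fold with an interval of 2.66 to 5.80, adjusted p = 0.0101 by limma), higher in 9 of 9 exposed rats, and ranked 22 by unadjusted p among the 21239 probes tested. An exact two-sided permutation test of the 9 exposed against the 3 control rats gave p = 0.00455, the smallest that its 220 splits allow. Full separation of exposed and control rats was also seen for 9.48% of the probes tested, and the permutation took no account of slide. The probe was well above background on every array.

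With slide as a block the Ahrr difference was 1.39 in CS+LPS rats, 2.44 in CS+LPS+NaHS rats and 2.09 in CS+LPS+PPG rats. The CS+LPS value is that of the CS+LPS rats against Control 3, the sole control on slide 2, so it has no replicate of the control behind it. With this block limma called 8731 probes for CS+LPS against control, against 447 without it, so the Ahrr call there stood among many. Within slide 1, with 2 control rats, the difference was 2.44 for NaHS (adjusted p = 0.0541 by limma, which missed the threshold) and 2.09 for PPG (adjusted p = 0.0191 by limma). The single-group calls were lost when limma was given only the arrays of the groups compared (adjusted p = 0.165, 0.212 and 0.152 for CS+LPS, NaHS and PPG) or when some single arrays were left out, whereas the call over all exposed rats held in each of the 24 alternatives that could give it. For that comparison the setting with only the groups compared keeps every array and repeats the main fit. Within slide 1 it sets NaHS and PPG rats against 2 control rats, without the CS+LPS rats.

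Neither NaHS nor PPG moved Ahrr from its level in CS+LPS rats beyond the spread between rats. The difference was 0.13 for NaHS (interval -0.56 to 0.82) and -0.23 for PPG (interval -0.92 to 0.46), and between NaHS and PPG it was 0.36 (interval -0.33 to 1.05). The intervals of NaHS and of PPG against CS+LPS leave room for differences of that size in either direction. The interval between NaHS and PPG also leaves room for no difference. With slide as a block the NaHS difference from CS+LPS was 1.06 (adjusted p = 0.122 by limma). The PPG difference from CS+LPS moved to the other side of 0, at 0.70 (adjusted p = 0.302 by limma). Both values are set by the controls of the slides.

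The marker lists of other lung and blood cells were read beside Ahrr over all exposed rats, where 5.43% of all probes passed an adjusted p under 0.05. Of the 5 macrophage markers listed, 4 were on the array and 3 were tested, and 1 of these passed: Cd68, a lysosomal membrane protein of macrophages, was higher by 1.38 (adjusted p = 0.0128 by limma). Mrc1 and Csf1r were at 0.66 and 0.56 and did not pass. The summed scaled signal of the macrophage list lay between 4505 and 9048 in control rats, between 13620 and 20090 in CS+LPS rats, between 14590 and 18470 in CS+LPS+NaHS rats and between 12950 and 16980 in CS+LPS+PPG rats, and Cd68 alone made up 70.1 to 86.5% of it. The exposed and control rats did not overlap in this sum, as was the case for 9.48% of the probes tested.

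Of 6 neutrophil markers 1 passed, Fcnb, at 2.71 (adjusted p = 0.0205 by limma), while the other 5 were between 0.12 and 1.03. The median of the list was 0.98, and 4 of 6 had an unadjusted p under 0.05 by limma, against 30.4% of all probes. The neutrophil sum overlapped, at 7450 to 18450 in control and 15450 to 34900 in exposed rats. Of 6 endothelial markers 2 passed, Pecam1 and Tek, which fell by 0.65 and 0.51 (adjusted p = 0.0229 and 0.0471 by limma), while Cdh5, Tie1 and Kdr were at 0.25, 0.34 and 0.17, Cldn5 was at -0.32 and the median of the list was -0.08. Of 5 alveolar type 2 markers 1 passed, Lamp3, at 0.89 (adjusted p = 0.0163 by limma), and the median of the list was 0.29. The surfactant genes Sftpc and Sftpb were at -0.45 and -0.29. The other surfactant gene, Sftpa1, had a mean of 16.83 in control and 16.96, 17.03 and 17.39 in CS+LPS, NaHS and PPG rats. Napsa had a mean of 16.06 in control and 16.45, 16.45 and 16.34 in the same order. The other lung and blood lists gave no call at the adjusted threshold. Their median differences were -0.54 for club cells, -0.30 for ciliated cells and 0.02 for alveolar type 1 cells. They were 0.48 for fibroblasts, 0.79 for T and B cells and -0.19 for blood. At an unadjusted p under 0.05 by limma, in either direction, 4 of 5 club, 1 of 5 ciliated and 1 of 5 type 1 markers passed. The club markers that passed were Scgb1a1, Scgb3a2 and Cyp2f4, at -0.54, -0.57 and -0.78, and Cyp2b1, which went the other way at 0.37. For fibroblasts, T and B cells and blood it was 3 of 5, 2 of 3 and 0 of 3, against 30.4% of all probes. The part of cell makeup in the Ahrr difference was not tested, and in bulk tissue more cells of a type and more RNA per cell cannot be told apart.

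**Figure D2:**
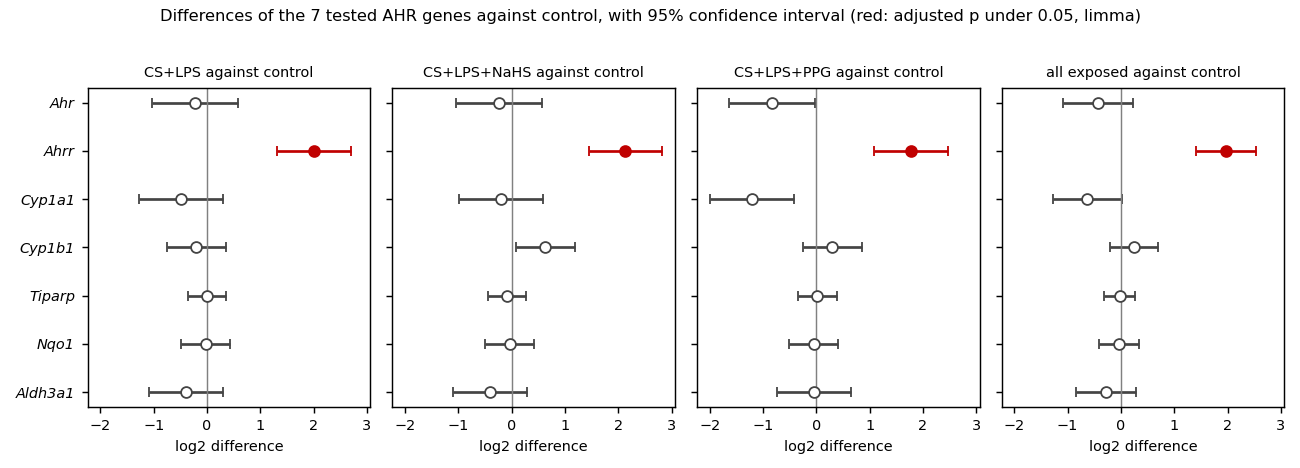
Difference of each of the 7 tested genes from control, on the log2 scale, in 4 comparisons. Points are limma estimates, bars are 95% confidence intervals, and red filled points had an adjusted p under 0.05. Ahrr lay between 1.78 and 2.14 in all panels, and no other gene was called.

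Cyp1a1, the P450 enzyme whose induction is the usual readout of AHR activity, was not called in any exposed group. Its log2 signal, the mean of 7 to 10 spots on an array, was 9.72, 8.54 and 9.77 in control rats. It was 8.97, 8.95 and 8.65 in CS+LPS rats, 8.95, 9.57 and 8.92 in CS+LPS+NaHS rats, and 7.78, 8.76 and 7.85 in CS+LPS+PPG rats. Control 2 was more than 1 unit below the other controls, within the range of the exposed rats, so all groups overlapped with control. The difference was -0.48 in CS+LPS rats (interval -1.27 to 0.30) and -0.19 in CS+LPS+NaHS rats (interval -0.98 to 0.59). Both moved with the controls: without Control replicate 2 they were -0.88 and -0.60, without Control replicate 3 they were -0.27 and 0.02, and with slide as a block they were -0.91 and 0.02.

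In CS+LPS+PPG rats Cyp1a1 differed from control by -1.21 (interval -1.997 to -0.423, 2.31-fold lower, unadjusted p = 0.00621 and adjusted p = 0.0667 by limma), which missed the adjusted threshold but passed the rule of the study, a fold change of at least 2 at an unadjusted p under 0.05. The value depended on the controls: it was -1.61 without Control replicate 2 (adjusted p = 0.0259 by limma), and -0.996 without Control replicate 3 or within slide 1, where the rule of the study was no longer met. Over all exposed rats it was -0.63 (adjusted p = 0.172 by limma), and -1.03 without Control replicate 2 (adjusted p = 0.0362 by limma). CS+LPS+NaHS rats were all above CS+LPS+PPG rats, by 1.02 (interval 0.23 to 1.80, unadjusted p = 0.0162 and adjusted p = 0.555 by limma), a comparison within slide 1.

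Marker lists of other tissues and cells were read beside Cyp1a1. In PPG rats against control, 0 of 3 fat markers and 0 of 4 heart muscle markers passed an adjusted p under 0.05 by limma, against 5.24% of all probes, and 1 and 0 had an unadjusted p under 0.05. Their median differences were 2.59 and 2.94 on the log2 scale. The summed scaled signal of the fat markers was 346.7 to 7211 in control rats, 581.4 to 1067 in CS+LPS+NaHS rats and 1918 to 4380 in CS+LPS+PPG rats. The NaHS and PPG rats did not overlap in this sum, as was the case for 25.3% of the probes tested. Of 6 endothelial markers 1 passed in PPG rats, Pecam1, at -0.81 (adjusted p = 0.0248 by limma), while the other 5 were between -0.46 and 0.25 and the median was -0.13. The heart muscle sum overlapped, at 6234 to 63610 in control rats and 27190 to 44850 in CS+LPS+PPG rats. Of 5 club cell markers 0 passed the adjusted threshold in PPG rats, and 0 had an unadjusted p under 0.05 by limma. Scgb1a1, Scgb3a2, Cyp2f4 and Cldn10 were at -0.50, -0.50, -0.72 and -0.20, and Cyp2b1 was at 0.33. The medians were -0.50 for club cells and -0.19 for ciliated cells. The part of fat, heart muscle, endothelium or airway cells in the Cyp1a1 values was not tested.

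Cyp1a2, the close relative of Cyp1a1 that is expressed mainly in liver, was not well above background on any of the 12 arrays, with log2 signals from 1.89 to 3.33. No fold is given for it.

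Cyp1b1, the third CYP1 enzyme, which is found outside the liver and metabolises hydrocarbons and steroids, was highest in CS+LPS+NaHS rats. Its log2 signal was 7.22, 6.82 and 7.31 in control rats, 7.09, 6.45 and 7.21 in CS+LPS rats, 8.01, 7.46 and 7.79 in CS+LPS+NaHS rats, and 7.82, 7.31 and 7.13 in CS+LPS+PPG rats. The NaHS rats did not overlap with control or CS+LPS rats, but they did overlap with PPG rats. The difference of NaHS from control was 0.63 (interval 0.08 to 1.19, unadjusted p = 0.0295 and adjusted p = 0.248 by limma), and from CS+LPS it was 0.84 (interval 0.28 to 1.39, unadjusted p = 0.00724 and adjusted p = 0.208 by limma). Neither passed after adjustment. CS+LPS rats without NaHS were at -0.20 from control, with an interval of -0.76 to 0.36, and PPG rats at 0.30, with an interval of -0.26 to 0.86. The order of the group means was NaHS, PPG, control and CS+LPS, and no pair of neighbours in it differed at an adjusted p under 0.05.

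Tiparp encodes a poly(ADP-ribose) polymerase that is induced by AHR and limits it. It had the narrowest range of the 7 tested members, with log2 signals of 11.27, 11.27 and 11.14 in control rats, 11.48, 11.26 and 10.94 in CS+LPS rats, 11.32, 10.99 and 11.13 in CS+LPS+NaHS rats, and 11.06, 11.43 and 11.26 in CS+LPS+PPG rats. All groups overlapped. Over all exposed rats the difference was -0.02 with an interval of -0.31 to 0.27, from a probe with 1 spot on each array.

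Nqo1, a quinone reductase that is a target of both AHR and the oxidative stress factor NRF2, lay between 9.91 and 10.65 on all arrays. It was 10.20, 10.14 and 10.65 in control rats, 10.29, 10.16 and 10.47 in CS+LPS rats, 10.39, 10.06 and 10.44 in CS+LPS+NaHS rats, and 10.61, 10.32 and 9.91 in CS+LPS+PPG rats. All groups overlapped, and the difference over all exposed rats was -0.04 with an interval of -0.41 to 0.34.

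Aldh3a1, an aldehyde dehydrogenase of the same target group, was 10.25, 10.33 and 10.16 in control rats, 10.14, 8.95 and 10.47 in CS+LPS rats, 9.86, 9.64 and 10.01 in CS+LPS+NaHS rats, and 10.17, 10.03 and 10.42 in CS+LPS+PPG rats. The NaHS rats were all below the control rats, at -0.41 (interval -1.10 to 0.28), and CS+LPS replicate 2 was more than 1 unit below the other CS+LPS rats. The CS+LPS difference was -0.39 (interval -1.08 to 0.30), and it was 0.06 without that rat. None of these passed the test.

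In counts, 1 of the 7 tested members, Ahrr, passed an adjusted p under 0.05 in each comparison with control. The share of all tested probes that passed was 2.10% in CS+LPS rats, 0.122% in CS+LPS+NaHS rats, 5.24% in CS+LPS+PPG rats and 5.43% over all exposed rats. By the rule of the study 1, 1, 2 and 1 members passed in the same order, against 4.60%, 2.58%, 4.30% and 3.21% of all probes, and the second member in PPG rats was Cyp1a1. Groups did not overlap for 1, 3, 2 and 1 of the 7 members, against 25.5%, 25.3%, 33.6% and 9.48% of all probes, so non-overlap alone was common. The median difference of the members over all exposed rats was -0.04, beside -0.02 for all probes tested.

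Between exposed groups no member passed an adjusted p under 0.05 by limma or by the methods' t-test. At that adjusted threshold the share of all probes was 0.739% for NaHS against CS+LPS, 0.589% for PPG against CS+LPS and 0% for NaHS against PPG, where limma and the methods' t-test called 0 probes and 1885 had an unadjusted p under 0.05. At an unadjusted p under 0.05 by limma, 1 member passed for NaHS against CS+LPS (Cyp1b1), 0 for PPG against CS+LPS and 1 for NaHS against PPG (Cyp1a1), against 10.1%, 10.8% and 8.88% of all probes. By the rule of the study 0, 0 and 1 members passed, against 1.94%, 2.14% and 0.499% of all probes, and the member was Cyp1a1, higher in NaHS than in PPG rats. Groups did not overlap for 1, 0 and 2 members, against 20.3%, 19.3% and 25.3% of all probes.

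Other genes of the pathway gave no call at an adjusted p under 0.05 by limma in any of the 7 comparisons. They were 5 genes of the receptor complex and its coactivators, 6 relatives of the bHLH-PAS family, 6 further AHR-responsive genes and 7 targets of NRF2, all counted after the filter on dim probes. At an unadjusted p under 0.05 over all exposed rats, 2 of 5, 2 of 6, 3 of 6 and 2 of 7 passed by limma, in that order, against 30.4% of all probes. The median difference over all exposed rats was -0.35 for the complex, -0.20 for the relatives, -0.06 for the responsive genes and 0.11 for the NRF2 targets, beside -0.02 for all probes.

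A few of them passed the rule of the study without passing the adjusted test. In the same order of lists, 1 of 5, 0 of 6, 0 of 6 and 0 of 7 passed it in CS+LPS rats against control, beside 4.60% of all probes. In PPG rats against control it was 0 of 5, 1 of 6, 1 of 6 and 0 of 7, beside 4.30%. Of the relatives 1 of 6 passed for PPG against CS+LPS and for NaHS against PPG, beside 2.14% and 0.499%, and 0 genes of the other lists. Ncoa2, a coactivator that binds nuclear receptors and AHR, was at -1.06 in CS+LPS rats against control (adjusted p = 0.0962 by limma). Ereg, which encodes the growth factor epiregulin, was at -1.02 in PPG rats against control (adjusted p = 0.0529 by limma). Npas2, a clock factor of the bHLH-PAS family, was at -1.38 in PPG rats against control (adjusted p = 0.0741 by limma). It was at -1.84 in PPG rats against CS+LPS rats (adjusted p = 0.116 by limma), a comparison across slides. As NaHS minus PPG it was at 2.07 (adjusted p = 0.555 by limma). Epas1, which encodes the hypoxia factor HIF2A that also pairs with ARNT, came next in size in CS+LPS rats, at -0.94 (adjusted p = 0.0962 by limma), and did not reach the fold. Hmox1, the NRF2 target that breaks down heme, was at 0.37 over all exposed rats (adjusted p = 0.124 by limma), and Gclc, the rate-limiting enzyme of glutathione synthesis, at 0.01 (adjusted p = 0.966 by limma).

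**Figure D3:**
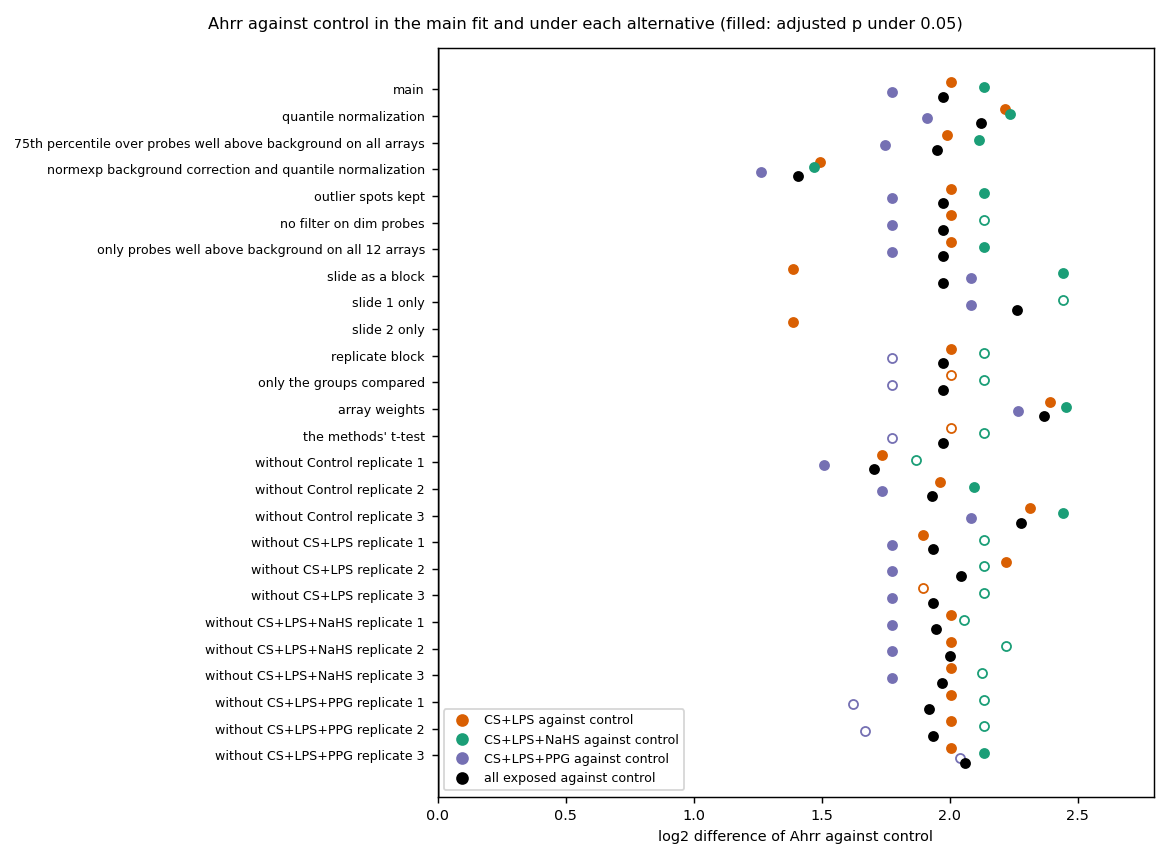
Log2 difference of Ahrr from control in the fit reported here (top line) and under each alternative, with 1 line for each setting and 1 colour for each comparison. Filled points had an adjusted p under 0.05. All points lay between 1.26 and 2.45, and the comparison over all exposed rats (black, within slide 1 without CS+LPS rats) was filled throughout.

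The genes whose signal followed Ahrr most closely over the 12 arrays were Pdzrn4 (Pearson r = 0.963), Slc16a13 (0.951), Dis3 (0.929), Rcbtb2 (0.915) and Mt1 (0.901). These values are descriptions over arrays that share the same groups and scaling, so a gene that differs between exposed and control rats will score high. Slc16a13, a monocarboxylate transporter, was higher by 0.52 over all exposed rats, and Mt1, the metal-binding metallothionein, by 0.73 (adjusted p = 0.0383 and 0.047 by limma), well below the Ahrr difference in size. Pdzrn4 was well above background on all 9 exposed arrays and on 0 of the 3 control arrays, so its control values are bounds.

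**Figure D4:**
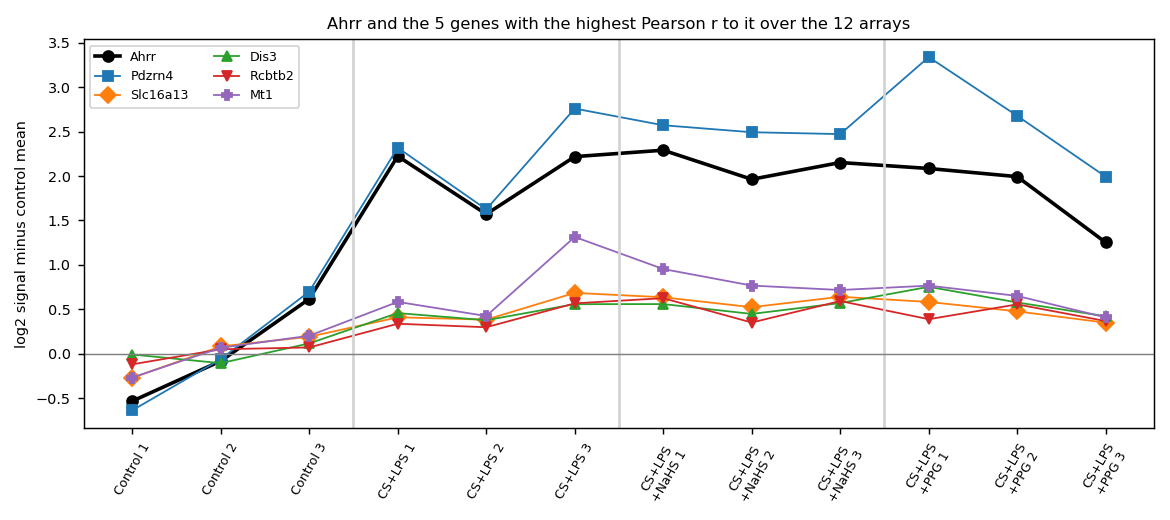
Log2 signal of Ahrr (thick black line) and of the 5 genes with the highest Pearson r to it, each minus its own mean over the control rats, on the 12 arrays in order of group. Lines join arrays for legibility and carry no order, and the Pdzrn4 control values were not well above background. Ahrr stood at 1.97 on average in exposed rats, while Slc16a13, Dis3, Rcbtb2 and Mt1 stood between 0.45 and 0.73.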

How the data were processed

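RNA of the left upper lung lobe of 12 rats was hybridised to single-colour Agilent rat arrays, and the authors deposited 1 scanner file for each array, made with Agilent Feature Extraction 10.7 per the labels. The values used are the intensity of each spot after background subtraction by that software, which the authors deposited without normalization between arrays. The files of Control 1, Control 2 and CS+LPS+NaHS 1 hold signals rounded to 3 significant digits. The lists of differentially expressed genes that the authors deposited hold their own fold changes, p-values and normalized log2 values and were not used, and 0 columns of unassigned samples were found. Groups and replicate numbers came from the labels.

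Control spots were left out. Each array was scaled to the 75th percentile of its spots, log2 was taken, and spots of a probe were averaged without those the software marked as outliers. A probe was kept for testing if every array of some group (3 of 3) showed it well above background. Probes were named by RefSeq accession through a gene table of assembly GRCr8, which gave a name to 17514 probes. limma 3.58.1 in R 4.3.3 (lmFit and eBayes) was fitted to all 12 arrays and 4 groups without covariates, with Benjamini-Hochberg adjustment over all 21239 probes, and intervals are 95% confidence intervals from it. The fit was tested on simulated data. The study's rule, a fold change of at least 2 with an unadjusted p under 0.05, was counted beside it. The replicates are separate rats, and the number of arrays limits the precision.

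The members, the pathway lists and the marker lists were chosen with earlier results of these data known. The genes named are the 9 members, the listed pathway genes past a threshold and the 5 genes with the highest Pearson r to Ahrr. Genes named beyond that rule (Epas1, Hmox1, Gclc and the markers) were chosen after their values were seen. Alternatives were quantile normalization, the percentile over common probes, normexp (offset 50, on the median spot signal in place of the mean), outlier spots kept, other filters on dim probes, slide as a block, single slides, a replicate block, only the groups compared, array weights, the methods' t-test on the same values and leaving out each array.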

Additional observations from a re-analysis of the deposited data

How the results depend on the processing

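Every Ahrr difference from control stayed positive under the alternatives run, and 73 of 96 kept an adjusted p under 0.05. Over all exposed rats the call held in each, but the setting with only the groups compared repeats the main fit there. Within slide 1 that comparison lacks the CS+LPS rats. With only the groups compared, limma gave the same differences of 2.00, 2.14 and 1.78 for CS+LPS, NaHS and PPG with adjusted p = 0.165, 0.212 and 0.152, and the methods' t-test gave 0.328, 0.270 and 0.205 after adjustment, so the number of members called in these 3 comparisons went from 1 to 0. For NaHS it also went to 0 without filter on dim probes (2.14, adjusted p = 0.0904 by limma) and within slide 1 (2.44, adjusted p = 0.0541 by limma).

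With replicate number as a block (replicate block) Ahrr kept its difference of 2.00, 2.14, 1.78 and 1.97 in CS+LPS, NaHS, PPG and all exposed rats, with adjusted p = 0.0482, 0.112, 0.0533 and 0.0332 by limma, so 0 members were called for NaHS and PPG. The numbers are not stated to pair the rats. Deviations of same-numbered arrays correlated between -0.308 and 0.139 over 18 pairs, a check that cannot exclude pairing with so few arrays in a group.

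Leaving out each array in turn gave Ahrr differences of 1.74 to 2.31 for CS+LPS, 1.87 to 2.44 for NaHS, 1.51 to 2.09 for PPG and 1.71 to 2.28 for all exposed rats, and 0 to 1, 0 to 1, 0 to 2 and 1 to 2 members called. The call was lost for CS+LPS without CS+LPS 3 (adjusted p = 0.0820 by limma), for PPG without PPG 1, 2 or 3 (0.0765, 0.0748 and 0.0563), and for NaHS without Control 1 (0.0713), without CS+LPS 1, 2 or 3 (0.0525, 0.0581 and 0.0611), without NaHS 1, 2 or 3 (0.181, 0.158 and 0.160) or without PPG 1 or 2 (0.0604 and 0.066). The second member called, without Control 2, was Cyp1a1. By the study's rule, leaving out an array gave 1 to 3 members for PPG, 1 to 2 for all exposed rats, 0 to 1 for PPG against CS+LPS and 0 to 1 for NaHS against PPG.

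By the study's rule the count for PPG went from 2 to 1 with slide as a block, within slide 1, with array weights and with the methods' t-test, where Cyp1a1 dropped out. For NaHS against CS+LPS it went from 0 to 2 with slide as a block. For NaHS against PPG it went from 1 to 0 with quantile normalization, with normexp, with array weights and with the methods' t-test. The cause of these changes was not tested. No called difference changed sign. Among members that were not called, 77 values moved to the other side of 0 and 2, both of Cyp1a1 without Control 2, passed the threshold. Over all probes, limma called 447, 26, 1112 and 1153 against control for CS+LPS, NaHS, PPG and all exposed rats, and the methods' t-test called 1, 0, 0 and 1039 at the same adjusted threshold. The alternatives spanned 1 to 8731, 0 to 1115, 0 to 3491 and 345 to 6100, with the highest counts for CS+LPS and all exposed rats under slide as a block and for NaHS and PPG under array weights. Without filter on dim probes the median difference of all probes in CS+LPS rats went from -0.06 to -0.23. Slide as a block moved the median of all probes to -0.11 for CS+LPS against control, and to 0.11 and 0.12 where NaHS and PPG were set against CS+LPS. Arnt and Cyp1a2 were limited by signal over background.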
